A study of Drosophila melanogaster with 18 samples.

Results

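The genes described here encode the proteins of the mitochondrial ribosome of Drosophila, named mRpL for the large subunit and mRpS for the small one. They were taken by symbol from the platform's table of probe sets and genes, as every probe set with a single gene whose symbol starts with mRpL or mRpS. That gave 64 of the 10843 genes that a probe set names singly, and 66 of the 13966 probe sets tested. The large subunit had 45 probe sets for 43 genes and the small subunit 21 for 21 genes. A further probe set, shared by mRpS10 and another gene, was left out by the rule, and 9 of the 73 mRpL and mRpS genes in the RefSeq gene table had no member probe set.

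The mitochondrial ribosome is built from RNA of the mitochondrial genome and from proteins that nuclear genes encode and that are imported into the organelle. It translates the messages of the mitochondrial genome, which code for subunits of the respiratory chain and of ATP synthase, so its protein genes set one input to oxidative phosphorylation. In the ovary the germline cells make and pass on the mitochondria that the oocyte inherits, and the follicle cells around them have a mitochondrial supply of their own.

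RNA came from hand-dissected Drosophila egg chambers of stages 9 to 10, from the ovaries of females aged 6 to 8 days, which in all groups were kept at 23 °C with yeast for 24 h, and each of 18 samples was hybridized to 1 Affymetrix Drosophila genome array. The wild type flies were OreR, and the 4 other groups carried CY2-GAL4, a driver of transgenes in follicle cells, so the germline of those egg chambers was not the tissue that the driver addresses. The transgenes were UAS-lambda-Top, an active form of the epidermal growth factor receptor (EGFR gain), UAS-dnEGFR, its dominant-negative form (EGFR loss), UAS-tkv*, an activated receptor of the bone morphogenetic protein pathway (BMP gain), and UAS-Dad, which encodes an inhibitor of that pathway (BMP loss). Round 1 held wild type A with both EGFR lines and BMP gain, round 2 held wild type B with BMP loss, and each of the 6 groups had 3 arrays. Each replicate pooled 100 of the 300 egg chambers of its genotype, gathered 20 at a time, so the p-values reflect no more than the spread among these pools, and that spread may be technical. Driver-only flies were not analysed here, so effects of strain, driver and transgene cannot be told apart in a comparison with wild type. In these whole egg chambers fewer cells of a type and less RNA per cell cannot be told apart either.

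On the log2 scale the array medians of round 1 were 4.44 to 4.51 and those of round 2 were 4.02 to 4.04. No level was compared between rounds. The number of arrays limits the precision. Markers of germline and of follicle cells were both present. The summed signal of 5 germline probe sets was 1479 to 2155 per array in round 1, and that of 7 follicle cell probe sets, yolk protein and vitelline membrane genes among them, was 31740 to 38960. One array stood apart in RNA quality: in EGFR loss replicate 3 the 3' control probe set for actin exceeded the 5' one by 2.89, and in the other arrays by 0.85 to 1.63.

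The genes of the mitochondrial ribosome were well measured in egg chambers. In each of the 18 arrays only 1 or 2 of the 66 probe sets lay under the array's median of all probe sets. In wild type A the 64 with a mean of 5 or more had mean log2 values of 5.39 to 8.85, with a median of 7.34, and a median SD of 0.09 over 3 arrays. In wild type B they ran from 5.02 to 8.69 with a median of 6.93. The median of the members stood 2.77 to 2.86 above the array median in wild type A and 2.83 to 2.92 above it in wild type B. Both dim probe sets belong to genes that also have a bright one. For mRpL12, which forms the stalk that recruits translation factors and which in Drosophila is needed for cell growth, the dim probe set averaged 3.15 ± 0.87 (SD, n = 3) in wild type A and the bright one 8.46 ± 0.09. For mRpL11, at the base of that stalk, they averaged 4.16 ± 0.32 and 7.18 ± 0.11. The dim probe sets varied more between arrays, and in EGFR loss their differences had the opposite sign to those of the bright ones.

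Most of these genes kept close to their wild type level whichever pathway was changed. Differences from wild type, on the log2 scale, were tested with limma on all 13966 probe sets, and the threshold for a call was 0.05 on the Benjamini-Hochberg adjusted p. The difference was under 0.3 on the log2 scale, either way, for 60 of 66 probe sets in EGFR gain and 53 in EGFR loss. It was so for 64 in BMP gain and 63 in BMP loss. That count was not made for other probe sets. With sign ignored, the members' median difference in EGFR loss was 0.15, and that of the brighter probe sets, defined below, was 0.15. These medians were 0.10 and 0.13 in EGFR gain, 0.11 and 0.11 in BMP gain, and 0.10 and 0.13 in BMP loss. Closeness to wild type was thus shared by the brighter probe sets. Over 8 comparisons 7 of the 64 genes were called at least once, in 10 calls, and 57 never. In single comparisons 0.430% to 3.17% of all probe sets were called in either direction, so calls were few among all probe sets too. The share of all probe sets called at least once was not counted. The members' median lay farthest from 0 in EGFR loss, where the median difference of the 66 probe sets was 0.15 and that of all probe sets was 0.00. The medians were 0.01 in EGFR gain, -0.01 in BMP gain and 0.03 in BMP loss.

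**Figure D1:**
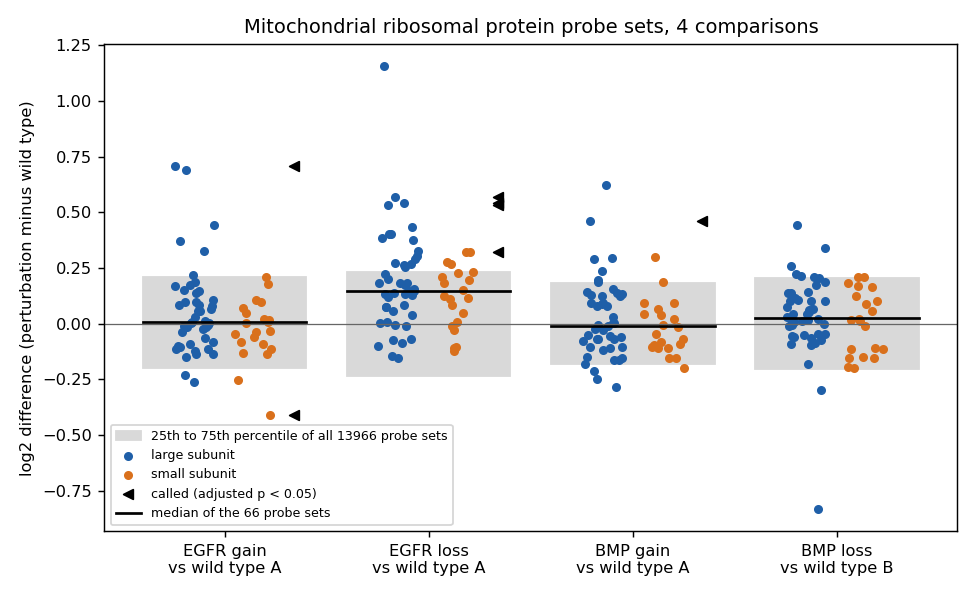
Each point is 1 of the 66 probe sets for mitochondrial ribosomal proteins, placed by its log2 difference from the wild type of its round, with large subunit genes in blue and small subunit genes in orange. Grey boxes span the 25th to 75th percentile of all 13966 probe sets, black lines mark the members' median and black arrowheads the called ones; the members' median lies at 0.15 in EGFR loss and between -0.01 and 0.03 in the others.

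EGFR loss was set against wild type A, a comparison in which strain, driver and transgene differ together. Of the 66 probe sets 4 rose, 3 of the large subunit and 1 of the small, 0 fell and 62 were not called. The differences of the 66 lay mostly above 0, with a median of 0.15 for the large subunit and 0.12 for the small. The called share was 1.69% for rises and 1.48% for falls over all probe sets, and 2.85% and 2.33% over the brighter ones, those at or above the median of means. For 26 of the 66, or 39.4%, all 3 EGFR loss arrays lay above all 3 wild type arrays, against 10.8% of all probe sets and 14.4% of the brighter ones. Only mRpL32 lay wholly below, where 10.7% of all probe sets did. An unadjusted p under 0.05 was reached by 23 members, all of them higher, which is 34.8% against 8.06% higher among all probe sets and 11.3% among the brighter ones. In sign 53 differences were positive and 13 negative, while 6908 of the 13966 probe sets overall were positive.

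The 4 that rose in EGFR loss did so by 1.25-fold to 1.48-fold. mRpL14, the relative of a bacterial protein at the face where the subunits meet, read 6.84, 6.85 and 6.99 in wild type A and 7.34, 7.40 and 7.65 in EGFR loss. The groups did not overlap, and the rise was 0.57 ± 0.11 (SE; adjusted p = 0.012). mRpL21, which binds the RNA of the large subunit, read 6.98, 6.64 and 6.82 in wild type A and 7.25, 7.49 and 7.30 in EGFR loss. Here too every EGFR loss array was above every wild type array, with a rise of 0.53 ± 0.12 (0.028). mRpL48 belongs to the proteins that the mitochondrial ribosome has and the bacterial one lacks, and read 6.30, 6.59 and 6.47 in wild type A against 6.76, 7.09 and 7.14. Its rise was 0.54 ± 0.13 (0.036). mRpS17, an RNA-binding protein of the small subunit, had the tightest EGFR loss values of the 4, at 7.21, 7.25 and 7.26 against 6.87, 7.04 and 6.86. It rose by 0.32 ± 0.07 (0.035).

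These calls lie near the threshold, and in a fit to the 6 arrays of the comparison alone none of the 4 held (highest adjusted p 0.37). That of mRpL14 ended without wild type A replicate 1 or 2 (0.053 each). That of mRpL21 ended without wild type A replicate 2 (0.12) or 3 (0.087) or EGFR loss replicate 2 (0.098) or 3 (0.051). That of mRpL48 held only when all arrays or all but EGFR loss replicate 1 were kept (otherwise up to 0.12), and that of mRpS17 only with all or all but wild type A replicate 2 (otherwise up to 0.14). The number called was 1 without any one wild type A array or EGFR loss replicate 2, and it was 6 without replicate 1 of EGFR loss. The members' median was 0.13 to 0.22 with any array left out. Without EGFR loss replicate 3, the array with the high actin difference, it was 0.15, with 51 differences positive and 15 negative.

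**Figure D2:**
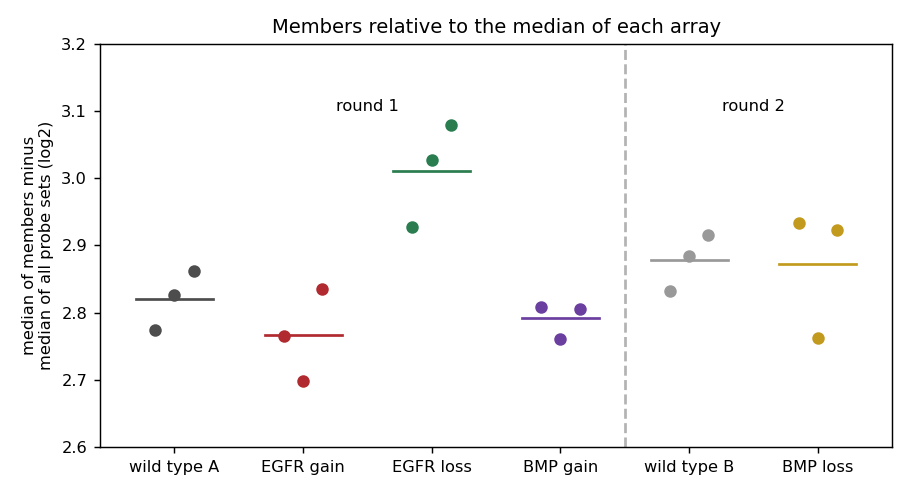
Each point is 1 array, placed by the median log2 value of the 66 members minus the median of all probe sets on that array, with the group mean as a line and rounds 1 and 2 separated by the dashed line. The 3 EGFR loss arrays sit at 2.93 to 3.08, above the 9 other arrays of round 1, which reach at most 2.86; the axis does not start at 0.

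The differences in EGFR loss were also read by role, with no test between classes. Among the 28 large subunit probe sets with numbers up to 36, which follow the names of bacterial proteins, 23 differences were positive, the median was 0.15 and 39.3% lay wholly above wild type A. They include mRpL3 and mRpL4, relatives of proteins near the catalytic centre and the exit tunnel, and mRpL33, and these lay wholly above wild type A without being called. Among the 17 large subunit probe sets with higher numbers, mostly proteins particular to mitochondria, 14 were positive, the median was 0.18 and 47.1% lay wholly above. The small subunit gave a median of 0.10 for 10 probe sets numbered up to 21, with 7 positive and 20% wholly above, a share nearer to the 14.4% of the brighter probe sets. For 11 with higher numbers the median was 0.19, with 9 positive and 45.5% wholly above. The stalk genes did not move together: mRpL11 stood at 0.30 ± 0.10 (adjusted p = 0.12), wholly above wild type A, and mRpL12 at -0.15 ± 0.08 (0.35), the lowest of all 66 differences. mRpL50, also of the large subunit, stood at -0.14 ± 0.09 (0.45). The related proteins mRpS18A, mRpS18B and mRpS18C stood at 0.11 ± 0.10 (0.64), 0.12 ± 0.17 (0.79) and -0.03 ± 0.08 (0.91). By the dim probe set mRpL12 had the largest difference of any member, 1.16 ± 0.55, which was not called (0.31).

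**Figure D3:**
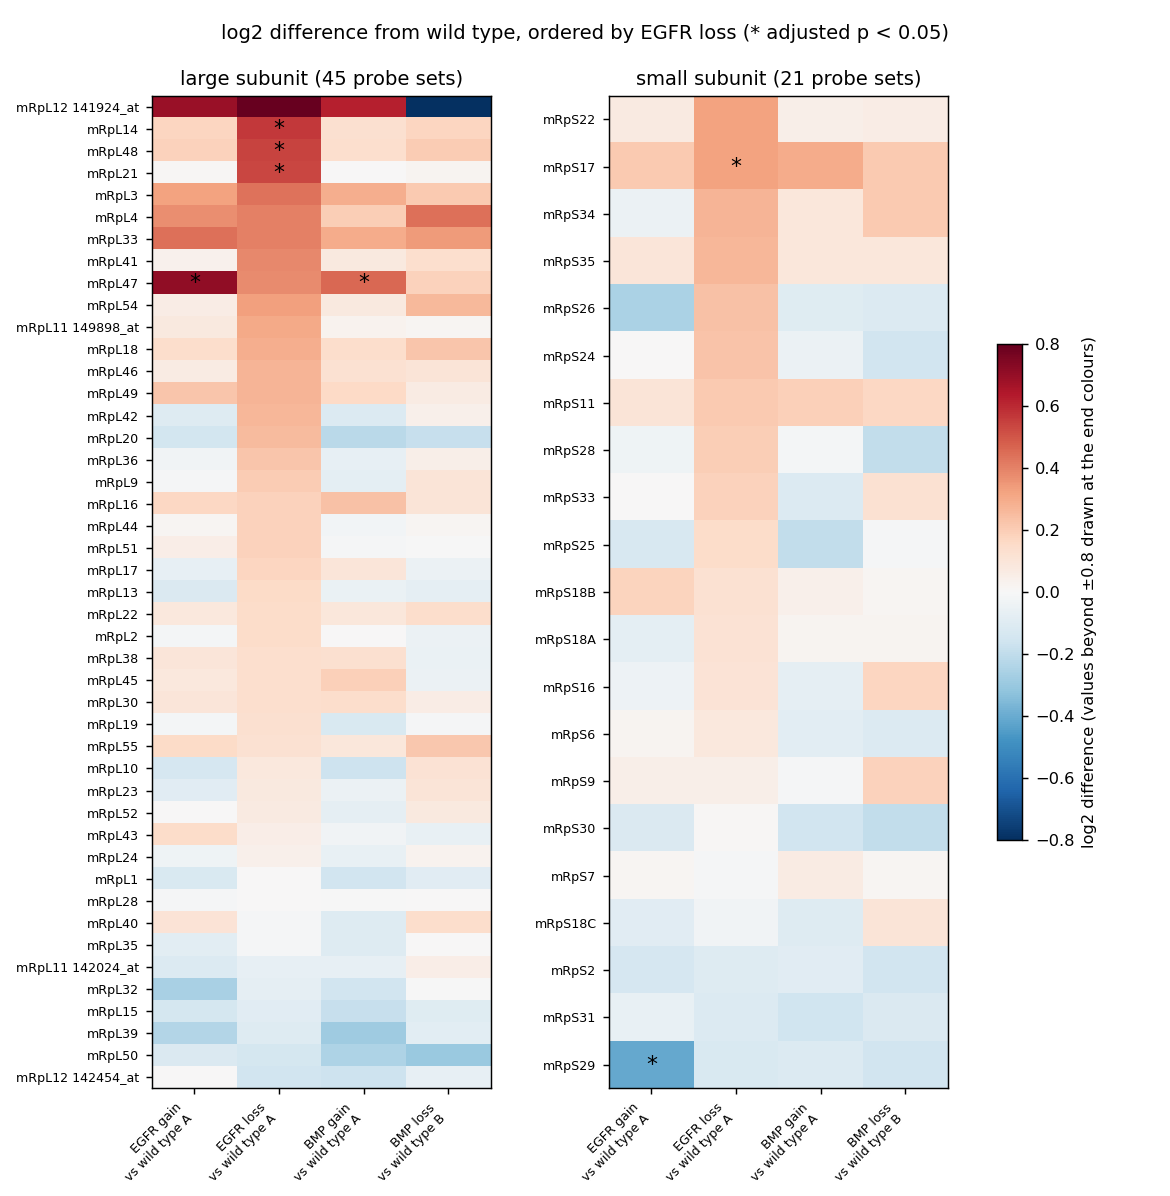
Rows are the 66 probe sets, split by subunit and ordered by their difference in EGFR loss, columns are the 4 comparisons with wild type, and colour gives the log2 difference, red for higher and blue for lower, with asterisks on called values. The EGFR loss column is red for 53 of the 66 rows, and 7 cells in all carry an asterisk.

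Of the markers of other tissues, those of muscle and fat body were mostly higher in EGFR loss. Among 5 probe sets for neuron and 3 for testis 0 were called, with medians of -0.20 and 0.36. Of 15 muscle probe sets 2 rose, with a summed signal of 354.0 to 470.3 per array against 211.2 to 284.5 in wild type A. Of 6 fat body probe sets 2 rose, with 127.7 to 229.6 against 66.31 to 91.1. On this scale no probe set is at 0, and 5 of the 15 muscle and 0 of the 6 fat body probe sets lay under the arrays' 25th percentile in EGFR loss. Follicle cell markers were at 31740 to 33360 against 37610 to 38960, with the 3 yolk protein genes called lower, and germline markers at 1479 to 1708 against 1912 to 2155, with osk called lower. The part of these markers in the shift of the ribosomal protein genes was not tested. In BMP gain the muscle sum was 252.4 to 346.8 and the fat body sum 74.8 to 142.8, and both ranges overlapped those of wild type A.

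Direct comparisons within round 1 set lines with the same driver against each other, without wild type. They share arrays with the comparisons above and with each other. Between EGFR gain and EGFR loss 56 of 66 differences were negative, with a median of -0.13 against 0.01 for all probe sets. For 20 members, or 30.3%, the EGFR gain arrays lay wholly below those of EGFR loss (8.70% of all probe sets and 11.3% of the brighter ones), and for 0 wholly above (8.41% and 10.5%). Without EGFR loss replicate 3 the median was -0.13, with 50 differences negative. Probe sets for muscle and fat body were lower in this comparison too: all 15 for muscle, with a median of -0.71 and 3 called, and all 6 for fat body, with a median of -0.74 and 1 called. Those for neuron and testis had medians of 0.43 and 0.13, with 0 called. Of 7 for follicle cells 3 were called higher and 1 lower in EGFR gain. All 5 for germline were higher there, with a median of 0.09 and 0 called. The part of these markers in the members' difference was not tested. Here 2 members were called lower and 0 higher, with 1.15% and 0.952% of all probe sets so called. mRpS26, a small subunit protein particular to mitochondria, was the clearest. It read 6.69, 6.68 and 6.60 in EGFR gain, 7.10, 7.30 and 7.03 in EGFR loss and 6.83, 6.90 and 7.0 in wild type A, so the wild type lay between the perturbations. The difference between EGFR gain and EGFR loss was -0.48 ± 0.08 (adjusted p = 0.0079) and stayed under the threshold with any 1 of the 6 arrays left out (highest 0.033). mRpS26 was not called in a fit to these 6 arrays alone (0.34). Against wild type A neither of its changes was called, at -0.25 ± 0.08 (0.16) in EGFR gain and 0.23 ± 0.08 (0.17) in EGFR loss. mRpL21 was lower in EGFR gain than in EGFR loss by -0.52 ± 0.12 (0.036), a call that ended whichever of the 6 arrays was left out (0.052 to 0.13). The number called was 1 without EGFR gain replicate 1 or 2 or EGFR loss replicate 3.

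Between EGFR loss and BMP gain 59 of 66 differences were positive, with a median of 0.14 against 0.00 for all probe sets. EGFR loss lay wholly above BMP gain for 24 members, or 36.4% (9.90% of all probe sets and 13.3% of the brighter ones), and wholly below for 0 (10.2% and 13.9%). mRpL21 alone was called, higher in EGFR loss by 0.53 ± 0.12 (adjusted p = 0.036), with 1.08% of all probe sets called higher and 0.917% lower. With single arrays left out that call held only in the fit without EGFR loss replicate 1 (0.047) and ended in the other 5 (0.053 to 0.13). The number called was 4 without EGFR loss replicate 1, and it was 0 without replicate 2 of that group or replicate 2 or 3 of BMP gain. Without EGFR loss replicate 3 the median was 0.13, with 53 differences positive. Of the muscle probe sets 14 of 15 were higher in EGFR loss than in BMP gain, with a median of 0.48 and 1 called. Of the fat body ones 6 of 6 were higher, with a median of 0.76 and 0 called. Of 7 follicle cell probe sets 1 was called higher and 3 lower in EGFR loss, and of 5 germline ones 0 higher and 1 lower. The part of these markers was not tested either. Between EGFR gain and BMP gain limma called 0 of 66, with 3 at an unadjusted p under 0.05 and 1.27% of all probe sets called in either direction. There the median was 0.03, and 4 members lay wholly above and 3 wholly below (9.64% and 9.47% of all probe sets, 12.4% and 13.1% of the brighter ones).

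EGFR gain, with the active receptor, was set against wild type A, again with strain, driver and transgene differing together. A large and a small subunit gene changed, and the members' median difference was 0.01. Of 66 probe sets 1 rose and 1 fell (1.52% and 1.29% of all probe sets), with 36 differences positive. Arrays lay wholly above wild type A for 8 members and wholly below for 6, which is 12.1% and 9.09% against 10.7% and 10.6% of all probe sets and 14.5% and 14.9% of the brighter ones. mRpL47, the relative of a bacterial protein at the mouth of the exit tunnel, read 7.32, 7.15 and 7.14 in wild type A and 7.75, 7.97 and 8.01 in EGFR gain. This was the largest called change of any member, 1.63-fold, or 0.71 ± 0.10 (adjusted p = 0.0013). It held with any array left out (highest 0.0093) but not in a fit to these 6 arrays alone (0.11). mRpS29, a GTP-binding protein of the small subunit whose human relative is known for a role in cell death, read 8.12, 8.09 and 8.24 in wild type A and 7.78, 7.84 and 7.60 in EGFR gain. It fell by 0.41 ± 0.10 (0.037), a call that ended whichever of the 6 arrays was left out (0.051 to 0.16). mRpL32, at -0.26 ± 0.08 (0.11), was the next lowest and was not called. The dim probe set of mRpL12 stood at 0.69 ± 0.55 (0.67) and the bright one at 0.00 ± 0.08 (0.99).

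Activated Thickveins, the BMP receptor, was compared with wild type A in the same way. Only mRpL47 passed the test, and the members' median difference was -0.01. It rose by 0.46 ± 0.10 (adjusted p = 0.020), with BMP gain arrays at 7.67, 7.63 and 7.69, all above wild type A. That call ended without wild type A replicate 2 or 3 or any BMP gain array (0.058 to 0.095), and without wild type A replicate 3 or a BMP gain array 0 members were called. Of the other 65 probe sets 0 were called, while 1.17% of all probe sets rose and 1.22% fell, and an unadjusted p under 0.05 was reached by 6 higher and 3 lower members. Over all probe sets 5.60% reached it higher and 5.71% lower, and over the brighter ones 7.58% and 7.76%, so the members were near the background. Arrays lay wholly above wild type A for 12 members and wholly below for 11, or 18.2% and 16.7% (10.2% and 10.3% of all probe sets, and 13.9% either way of the brighter ones). Lowest were the large subunit genes mRpL39, at -0.29 ± 0.10 (0.20), and mRpL50, at -0.25 ± 0.09 (0.23). The largest difference was that of the dim probe set of mRpL12, 0.62 ± 0.55 (0.79), and its bright one stood at -0.16 ± 0.08 (0.47).

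BMP loss, where Dad blocks the pathway, was set against the wild type of round 2. No member passed the test: limma called 0 of 66, with 1.12% of all probe sets called higher and 1.17% lower. In sign 41 of the members' differences were positive and 25 negative, while 7033 of the 13966 probe sets overall were positive. An unadjusted p under 0.05 was reached by 6 higher and 1 lower member, while 6.63% of all probe sets reached it higher and 6.75% lower, and 9.22% and 8.92% of the brighter ones. Arrays lay wholly above wild type B for 13 members and wholly below for 4, or 19.7% and 6.06% (10.4% and 10.6% of all probe sets, 14.8% and 15.0% of the brighter ones). mRpL4 had the largest positive difference, 0.44 ± 0.12 (adjusted p = 0.069), and mRpL33 followed at 0.34 ± 0.12 (0.19). mRpL50 stood at -0.30 ± 0.09 (0.11), with values of 7.54, 7.64 and 7.75 in wild type B and 7.40, 7.25 and 7.39 in BMP loss. By its dim probe set mRpL12 stood at -0.83 ± 0.55 (0.59), and by its bright one at -0.06 ± 0.08 (0.82). The response to BMP gain less that to BMP loss was called for 0 members and for 0.430% of all probe sets. By this measure 1 member, lower, had an unadjusted p under 0.05, against 3.90% higher and 4.07% lower of all probe sets.

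**Figure D4:**
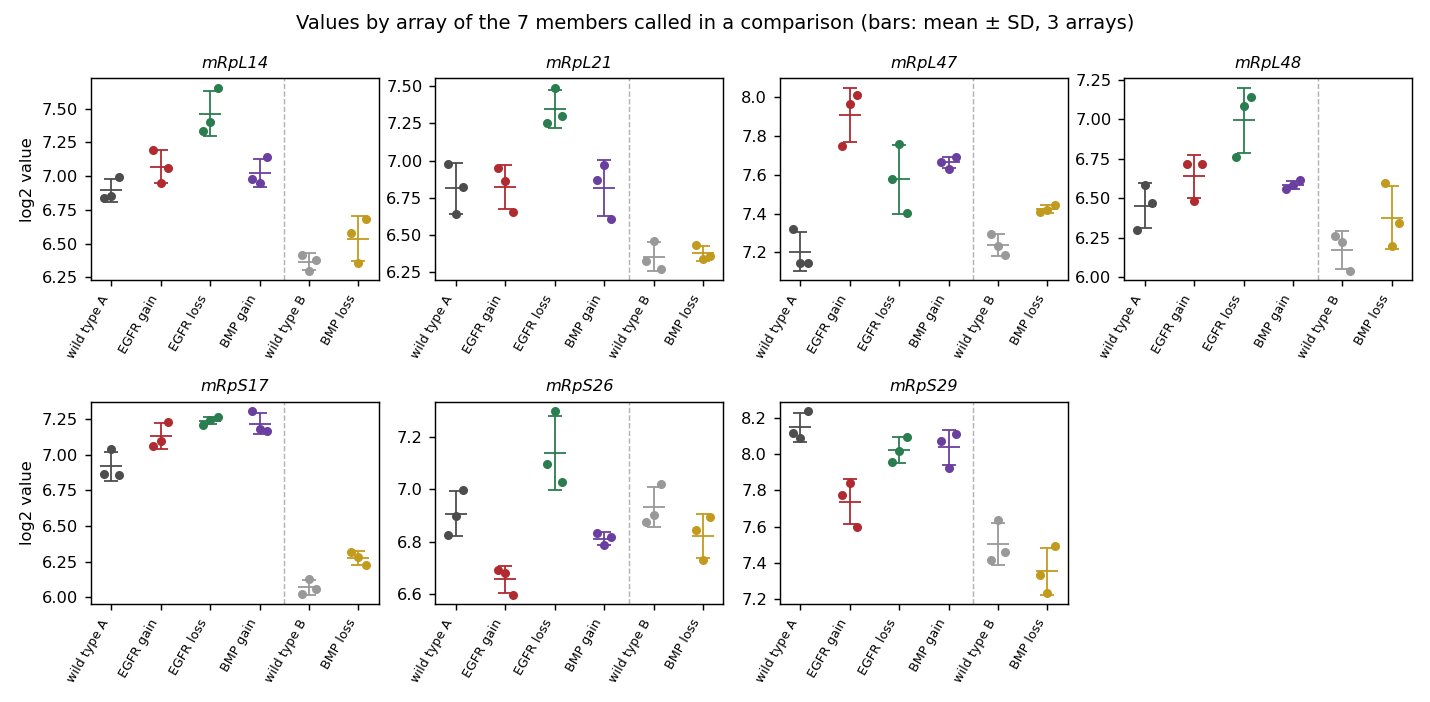
Log2 values by array of the 7 genes called in any comparison, with mean and SD over 3 arrays per group and the rounds separated by a dashed line; axes differ between genes and do not start at 0. EGFR loss is highest in round 1 for mRpL14, mRpL21, mRpL48 and mRpS26, and EGFR gain is highest for mRpL47 and lowest for mRpS29.

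In 4 genes, mRpL4, mRpL33, mRpL47 and mRpS17, picked out after their values were seen, the perturbed arrays lay wholly above wild type in each of the 4 comparisons. That is 6.06% of the 66 probe sets, against 1.19% of all probe sets and 2.21% of the brighter ones. The 3 comparisons of round 1 share the wild type A arrays, while BMP loss has a wild type of its own. mRpL47 read 7.30, 7.23 and 7.18 in wild type B and 7.41, 7.42 and 7.45 in BMP loss, a difference of 0.19 ± 0.10 (adjusted p = 0.44). In EGFR loss it read 7.58, 7.76 and 7.40, a difference of 0.38 ± 0.10 (0.053), so by group mean it was highest in EGFR gain and lowest in wild type within round 1. Between the perturbations mRpL47 was not called, at 0.33 ± 0.10 (0.11) for EGFR gain minus EGFR loss and 0.25 ± 0.10 (0.34) for EGFR gain minus BMP gain. mRpL4, whose bacterial relative lines the exit tunnel, read 6.12, 6.00 and 5.92 in wild type A against 6.39, 6.43 and 6.33 in EGFR gain, 6.31, 6.71 and 6.23 in EGFR loss and 6.13, 6.26 and 6.24 in BMP gain. In round 2 it read 5.87, 5.64 and 5.74 in wild type B against 6.08, 6.26 and 6.24 in BMP loss. None of its 4 differences, 0.20 to 0.44, was called (lowest adjusted p 0.069).

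The other 2 of these genes also lay above wild type in both rounds. mRpL33, a small protein of the large subunit, read 7.44, 7.25 and 7.40 in wild type A against 7.82, 7.69 and 7.90 in EGFR gain, 7.57, 7.70 and 8.03 in EGFR loss and 7.66, 7.64 and 7.67 in BMP gain. In round 2 its values were 7.04, 7.23 and 7.10 in wild type B and 7.48, 7.31 and 7.60 in BMP loss. Its differences were 0.30 to 0.44, and none was called (lowest adjusted p 0.062). mRpS17, called in EGFR loss, stood at 0.21 ± 0.07 in EGFR gain (0.19), 0.30 ± 0.07 in BMP gain (0.056) and 0.21 ± 0.07 in BMP loss (0.22). Between the perturbations of round 1 mRpS17 differed by 0.02 to 0.11 on the log2 scale, and none of those differences was called. For these 4 genes strain, driver and pathway cannot be told apart.

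Other genes of mitochondrial gene expression were read beside the ribosomal ones. Among 42 probe sets for translation factors, mitochondrial tRNA synthetases, transcription, RNA processing, DNA maintenance and protease genes, 6 rose and 0 fell in EGFR loss, 14.3% against 1.69% of all probe sets, and the median was 0.12. One of them is a ribosomal gene under another name: tko, for the small subunit protein whose mutants have seizures on mechanical shock, rose by 0.40 ± 0.09 (adjusted p = 0.036), from 7.17 ± 0.06 to 7.57 ± 0.19. Its partner in the list, bonsai, also for a small subunit protein, stood at -0.09 ± 0.07 (0.55). The others that rose were the release factor gene mRF1 by 0.95 ± 0.16 (0.0063), the elongation factor gene mEFTu2 by 0.39 ± 0.08 (0.019), the transcription termination factor gene mTTF by 0.48 ± 0.12 (0.043), rswl, of the enzyme that trims mitochondrial tRNA, by 0.40 ± 0.09 (0.023) and CysRS-m, a tRNA synthetase gene, by 0.55 ± 0.10 (0.011). CysRS-m also rose in EGFR gain by 0.56 ± 0.10 (0.0096) and in BMP loss by 0.79 ± 0.10 (0.0014), and rswl in BMP loss by 0.61 ± 0.09 (0.0022). In BMP gain the ribosome recycling factor gene mRRF1 alone rose, by 0.50 ± 0.12 (0.047).

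Nuclear-encoded subunits of oxidative phosphorylation, which cytosolic ribosomes make, join the products of the mitochondrial ribosome in shared complexes. Of 73 probe sets for such subunits 2 rose and 2 fell in EGFR loss, with a median of 0.05, and 15.1% lay wholly above wild type A. Of 37 probe sets for cytosolic ribosomal proteins 1 rose and 0 fell, with a median of 0.07 and 24.3% wholly above. For mitochondrial gene expression that share was 38.1%, for the mitochondrial ribosomal proteins 39.4% and for all probe sets 10.8%. The lists differ in brightness, which was not matched. Those of oxidative phosphorylation and cytosolic ribosomal proteins include dim probe sets, such as COX4L at -0.83 and RpL10Aa at -0.07 in wild type A. In EGFR gain the medians were 0.01 for the mitochondrial ribosomal proteins, 0.06 for oxidative phosphorylation and 0.03 for cytosolic ribosomal proteins. In BMP loss they were 0.03, 0.09 and 0.02, and in BMP gain all 3 lay between -0.02 and 0.00. For mitochondrial gene expression the median was -0.01 in EGFR gain, 0.04 in BMP gain and 0.08 in BMP loss, with 19.0%, 28.6% and 28.6% of its probe sets wholly above wild type.

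**Figure D5:**
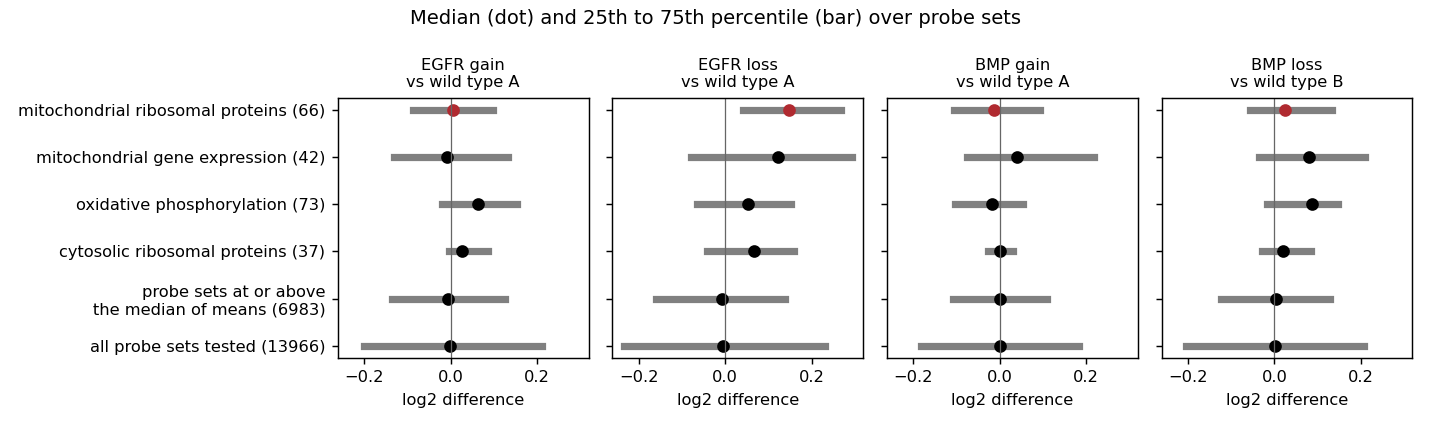
For each of the 4 comparisons with wild type, dots give the median and grey bars the 25th to 75th percentile of the log2 difference over the probe sets of a list, with the number of probe sets in parentheses. In EGFR loss the dots of the mitochondrial ribosomal proteins and of mitochondrial gene expression lie at 0.15 and 0.12, those of oxidative phosphorylation and cytosolic ribosomal proteins at 0.05 and 0.07, and that of all probe sets at 0.00.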

How the data were processed

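The authors deposited 1 table of log2 values, with 14010 probe sets and 1 column per array, all 18 of which were matched to samples. Per the submitters' processing notes it was made with the affy package. The background correction and summary method are not given in the sources used here. That the logarithm is to base 2 was settled from the highest value, 13.3. Array medians are close within a round and differ between rounds, and nothing was normalized further. After leaving out 44 Affymetrix controls, the other 13966 probe sets entered a model of the 6 group means (limma 3.58.1, R 4.3.3), with 12 residual and 1.31 prior degrees of freedom. The groups were taken from sample titles. Replicates of a group correlated at 0.958 to 0.970 (Spearman).

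Members were named from the platform annotation. All 66 matched the RefSeq table (Release 6 plus ISO1 MT) by gene number with unchanged symbols. Coordinates there place many members over another gene, among the called ones mRpL47 (Rlb1), mRpL48 (frtz) and mRpS29 (qkr58E-2). Whether their probe sets also read the other gene was not tested. Members, lists, tests and most alternatives were chosen with earlier results of these data known. Lists are described by counts and medians, with no set test. Named are all called members, the 2 largest and 2 smallest differences in each comparison with wild type, mRpL12, the mRpS18 genes, members with several probe sets and called genes of mitochondrial gene expression. Leaving out arrays for the counts of arrays that do not overlap was added after seeing the data. Alternatives were other sets of arrays, moderation, array weights, a filter, other normalizations, a replicate block and other membership. The fit was tested on simulated data with known changes.

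Replicate numbers were not taken as pairs, since same-numbered arrays of different groups had deviations that correlated at -0.02 to 0.09.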

Additional observations from a re-analysis of the deposited data

How the results depend on the processing

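The members' median in EGFR loss varied less with the settings than the number of calls. It was 0.14 to 0.18 over 10 other settings and 0.13 to 0.22 with single arrays left out. The numbers called were 2, 4, 1, 0, 2, 0, 1 and 0 for EGFR gain, EGFR loss, BMP gain and BMP loss against wild type, EGFR gain against EGFR loss, EGFR gain against BMP gain, EGFR loss against BMP gain, and the BMP responses. With single arrays left out they were 1, 1 to 6, 0 to 1, 0, 1 to 2, 0, 0 to 4 and 0. When only the arrays compared were fitted, all were 0. The 12 arrays of round 1 alone gave 1 in EGFR gain, 1 in EGFR loss, 0 in BMP gain, 1 between EGFR gain and loss and 0 between EGFR loss and BMP gain. With the replicate block these were 1, 1, 0, 1 and 0. An intensity trend with robust moderation gave 4, 11 and 2, then 2 in BMP loss, 5 between EGFR gain and loss and 8 between EGFR loss and BMP gain. Leaving out probe sets under the median of means, which removes 2 members, gave 5, 12, 2, 2, 7 and 9. Array weights gave 2 in BMP gain, 1 in BMP loss and 1 between EGFR gain and loss, and ended 4 of the 10 single calls: mRpL48 (0.074) and mRpS17 (0.056) in EGFR loss, and mRpL21 against EGFR gain (0.077) and BMP gain (0.061). Quantile normalization gave 1 in EGFR gain. Between EGFR loss and BMP gain centring arrays on their median and adding tko and bonsai to the members each gave 2. Of the 10 single calls, 2 held with every array of their comparison left out in turn, mRpL47 in EGFR gain and mRpS26 between EGFR gain and EGFR loss. None of the called differences, nor of the 2 largest and 2 smallest in each comparison with wild type, changed sign under these settings. The signs of other named differences were not followed. The members' median, near 0, ran from -0.03 to 0.03 in EGFR gain and from -0.05 to 0.00 in BMP gain with single arrays left out. The count of members lying wholly above wild type A in EGFR loss was 27 to 35 with an array left out, which is no check, since leaving out an array can only raise it; that of members wholly below was 1 to 6, and the share of all probe sets wholly above 14.6% to 16.8%. The dim probe sets of mRpL12 and mRpL11 have too little signal over the rest of the array to resolve differences of the size seen in the others.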

Other observations

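Within groups, mitochondrial ribosomal protein genes varied together from array to array, but weakly. The deviations of the 66 members from their group means had a mean pairwise correlation of 0.16 over the 18 arrays, and those of all 13966 probe sets a mean of 0.000313. For 60 of the 66 the mean correlation with the other members was above 0, and it ranged from -0.12 to 0.35. These points share arrays, RNA preparations and normalization, and the value is a description. With array medians close within a round, the mean over all probe sets lies near 0 almost by construction. No such mean was computed for the brighter ones. The mean deviation of the members ran from -0.09, in EGFR loss replicate 1, to 0.05, in EGFR loss replicate 2, so the group's level varied by about as much between arrays of that genotype as its median differed from wild type A.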
